A study of Homo sapiens with 9 samples.

Results

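The SLC25 genes encode the mitochondrial carrier family, and 41 of the 14943 genes in the expression table of SH-Sy5y neuroblastoma cells belonged to it. They were taken by symbol, as every gene named SLC25A followed by a digit. The carnitine/acylcarnitine carrier SLC25A20 was set aside. Of the 41 genes, 39 were annotated as protein-coding, and the other 2, SLC25A1P5 and SLC25A51P4, as pseudogenes. Carriers of this family are small membrane proteins, most of which sit in the inner mitochondrial membrane and exchange a metabolite of the matrix for one of the cytosol. They bring ADP and phosphate to the ATP synthase, move citrate, malate and amino acids, and supply the matrix with cofactors such as NAD+ and S-adenosylmethionine. In nerve cells the aspartate/glutamate carriers are part of the malate-aspartate shuttle, which passes reducing equivalents from glycolysis to the respiratory chain.

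The libraries came from SH-Sy5y, a noradrenergic human neuroblastoma line, 48 h after transfection with the lipid reagent Lipofectamine. Control cells (Ctrl) received 40 pmol of a negative control oligo. The 10 nM cells received 20 pmol of miR-1229-3p mimic together with 20 pmol of the control oligo, and the 20 nM cells received 40 pmol of mimic and 0 pmol of control oligo. Each group held 3 libraries of polyadenylated RNA, numbered 1 to 3 in the sample titles. All cells were of 1 line and all were transfected, and the control oligo fell as the mimic rose. The effect of more mimic and that of less control oligo therefore cannot be told apart at either dose or in the dose trend. In bulk RNA of this kind, fewer cells of a type and less RNA per cell cannot be told apart either.

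Library totals ran from 17423969 to 28192775 estimated counts. The library 20 nM replicate 3 stood apart from its group: its chi-square per degree of freedom against the other 20 nM libraries was 46.5 and 36.7, where every other pair of replicates lay between 4.69 and 8.4. All 9 noradrenergic marker genes were in the table, and their summed level was 5040 to 5263 CPM (the count scaled to the size of its library) in the Ctrl libraries, 5352 to 5459 CPM in those of 10 nM and 5130 to 5576 CPM in those of 20 nM. TH stood near 0, with a mean of 0.598 CPM in Ctrl and 0.154 CPM at 20 nM. Of 6 markers of flat, mesenchymal-type cells 5 were in the table and PRRX1 was not, with CD44 at 1.36 CPM in Ctrl, and the Ctrl libraries summed to between 1111 and 1186 CPM, the 10 nM libraries to between 1081 and 1180 CPM and the 20 nM libraries to between 887 and 1126 CPM. Whether these shifts play a part in the results that follow was not tested.

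The mimic carries the mature sequence of miR-1229-3p, shown here with its seed, bases 2 to 8, in capitals, because the sites described next are defined by it.
miR-1229-3p: cUCUCACCacugcccucccacag
The longest annotated 3′ UTR of each coding member was searched on its own strand for GGTGAGA, which pairs with bases 2 to 8, for GTGAGAA, which pairs with bases 2 to 7 before an A, and for both together, GGTGAGAA, an 8-mer. Both kinds of 7-mer contain the 6-mer GTGAGA. A 7-mer or 8-mer was found in 10 of the 39 coding members (25.6%), beside 22.6% of the 13778 genes of the table with an annotated 3′ UTR. The pairing with bases 2 to 8 occurred in SLC25A6, SLC25A16, SLC25A24, SLC25A36 and SLC25A42, and SLC25A36 held the family's only 8-mer. The members that held only the 7-mer before an A included SLC25A30, SLC25A32, SLC25A33 and SLC25A53. The sites of the bases 2 to 8 kind are printed below with their matched letters in capitals, for members that fell with dose and, in SLC25A16 and SLC25A42, for members that passed no test. Of the 4 members that fell in the dose trend 3 (75%) carried such a site, beside 25.2% of the 1076 fallen genes with an annotated 3′ UTR. As given below, the calls of SLC25A6 and SLC25A36 depended on the fit and on the libraries included, and that of SLC25A24 did not.
SLC25A24, chr1:108135663-108135669, minus strand: tcaatatgggcagcacaaaGGTGAGAgat
SLC25A24, chr1:108134238-108134244, minus strand: cttacctggatacctgacaGGTGAGAtgg
SLC25A6, chrX:1386348-1386354, minus strand: tccctgcgtggggcccatgGGTGAGAcac
SLC25A36, chr3:140980261-140980268, plus strand: tgatattaaaaatacagaGGTGAGAActt
SLC25A36, chr3:140977896-140977902, plus strand: ggccttttttgggggggagGGTGAGAgag
SLC25A16, chr10:68482781-68482787, minus strand: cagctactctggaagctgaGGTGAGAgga
SLC25A42, chr19:19112555-19112561, plus strand: tgggggtctgccccaggtgGGTGAGAcca
Coordinates are of GRCh38 and mark the capital letters. A match of letters is a description of the sequence and does not show that the microRNA binds there.

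In control cells the family spanned more than 3 orders of magnitude in level. Per kilobase of the canonical transcript, SLC25A6 stood highest at 774 CPM per kilobase and SLC25A5 next at 194, and both exchange ADP for ATP across the inner membrane. The glutathione carrier SLC25A39 followed at 96.8, the basic amino acid carrier SLC25A29 at 70.6 and the phosphate carrier SLC25A3 at 54.5 CPM per kilobase. The third adenine nucleotide carrier, SLC25A4, the form of heart and muscle, stood at 13.3 CPM per kilobase. At the low end lay SLC25A27, an uncoupling protein relative of brain, at 0.38, and the glutamate carrier SLC25A18 at 0.224 CPM per kilobase, far below its partner SLC25A22 at 32.2. The neuronal aspartate/glutamate carrier SLC25A12 stood at 2.57 and its paralogue SLC25A13 at 36.2 CPM per kilobase. With merged exons as the length, SLC25A29 dropped to 21.7, SLC25A51 from 19.8 to 6.81 and SLC25A26 from 9.53 to 0.89 CPM per kilobase, so the order among middle members depended on the length used. SLC25A6 and SLC25A5 stood at the top and SLC25A27 and SLC25A18 at the bottom by either length.

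**Figure D1:**
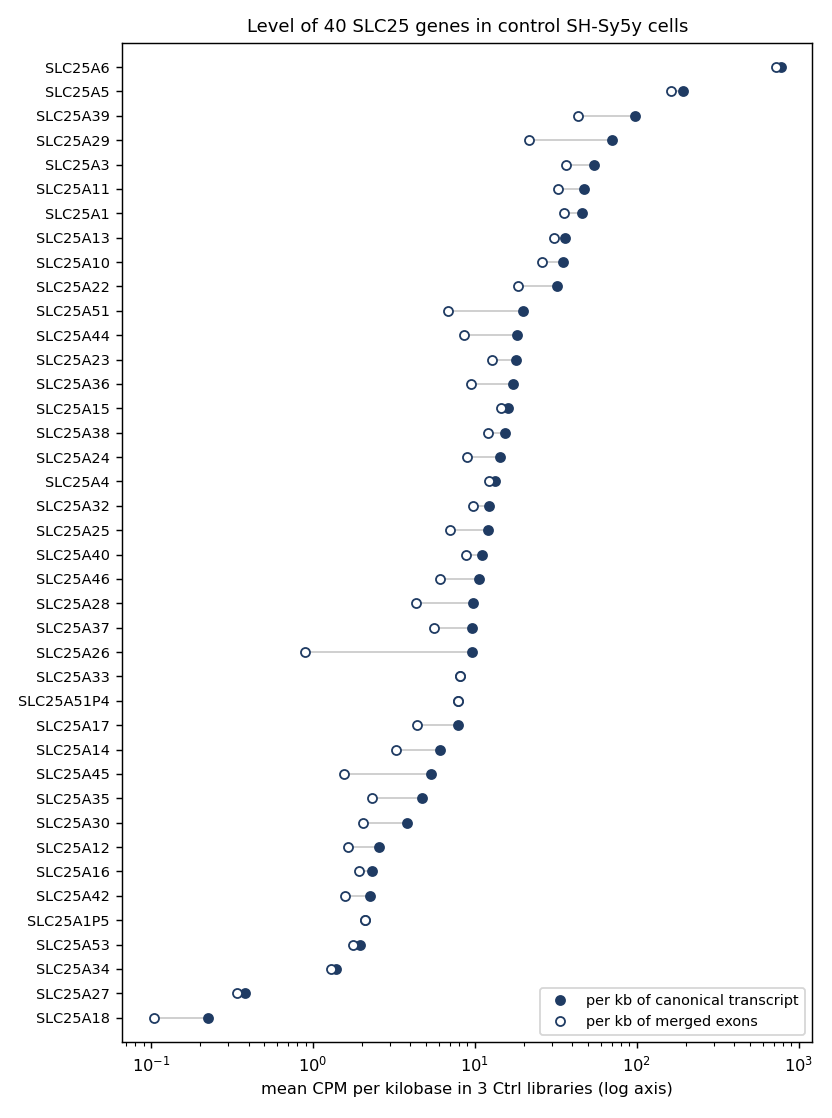
Mean level in the 3 Ctrl libraries of 40 of the 41 SLC25 genes, in CPM per kilobase on a log axis, by the length of the canonical transcript (filled) and of the merged exons (open). SLC25A6 (774 by the canonical length) and SLC25A5 (194) sit at the top and SLC25A18 (0.224) at the bottom, and SLC25A26 moves most between the lengths.

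By their median spread, the members varied between replicates about as much as other genes did. The median standard deviation of log2 CPM among replicates was 0.0774 over the members in Ctrl, 0.0867 at 10 nM and 0.165 at 20 nM, beside 0.0851, 0.0921 and 0.175 over all genes. Ctrl replicate 1 was the highest or lowest of the 9 libraries for 17 of the 41 members (41.5%), beside 27.5% of all genes. Shares in the libraries other than it and 20 nM replicate 3 were 7.32% to 24.4%, beside 10.7% to 23.5%. At 20 nM, replicate 3 was the highest or lowest for 26 of the 41 members (63.4%), as it was for 59.7% of all genes. SLC25A4 reached 93.2 CPM there against 55.1 to 68.3 CPM in the other 8 libraries. The dicarboxylate carrier SLC25A10 read 97.8 CPM there and 65.8 to 80.8 CPM elsewhere. Summed over the members, the level was 3288, 3353 and 3303 CPM in Ctrl, 3240, 3320 and 3363 CPM at 10 nM, and 3116, 3254 and 3535 CPM at 20 nM, so the groups overlapped. SLC25A6 alone made up 32.9% to 35.0% of that sum in Ctrl, 31.5% to 32.6% at 10 nM and 27.4%, 29.9% and 33.2% in the 20 nM libraries 1 to 3.

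**Figure D2:**
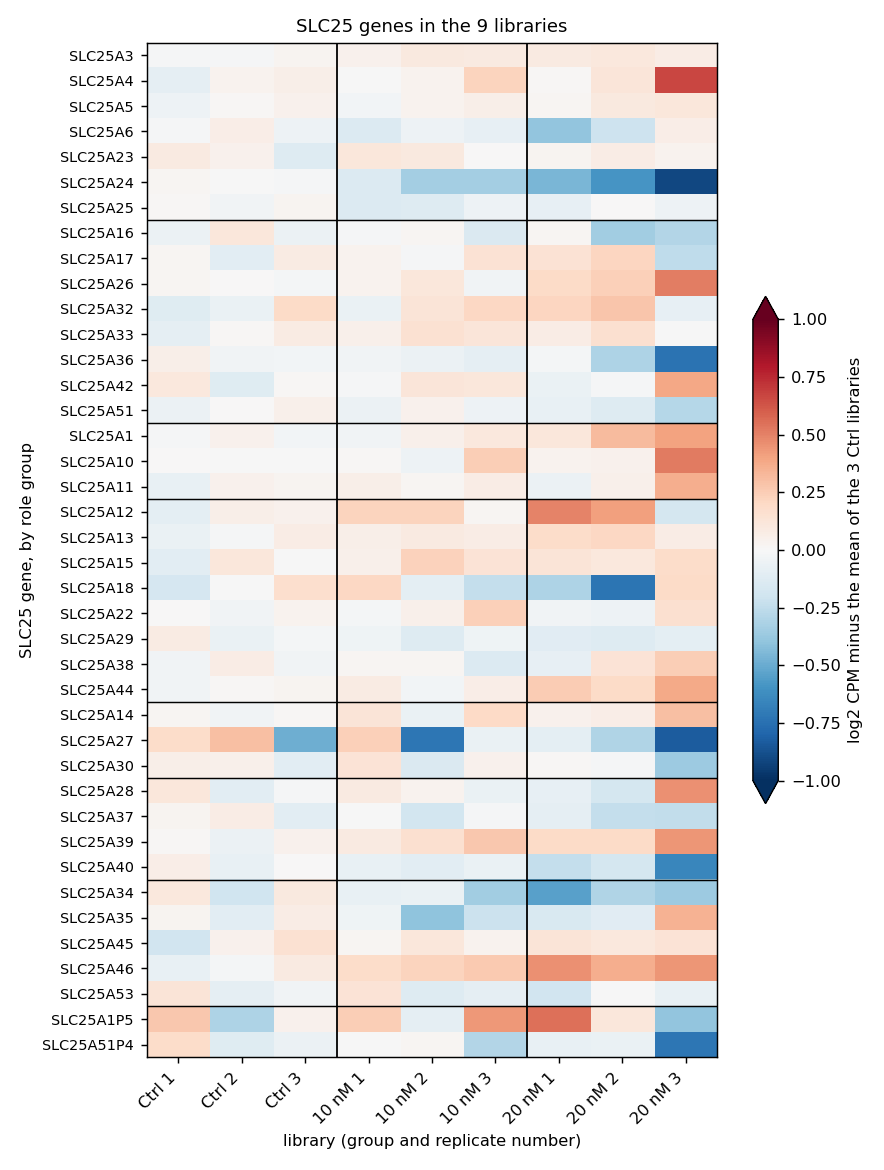
Log2 CPM of 40 of the 41 SLC25 genes (rows, in role groups parted by lines) in the 9 libraries (columns), as the difference from the mean of the 3 Ctrl libraries. SLC25A24 turns bluer (lower) from Ctrl to 10 nM to 20 nM and SLC25A46 redder (higher) in the same order, while many genes deviate only in 20 nM replicate 3, the last column.

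The first question of the design was whether the lower dose changed any carrier. None of the 41 members passed an adjusted p of 0.05 at 10 nM in edgeR's quasi-likelihood test, in which all 9 libraries entered with 1 surrogate variable and p-values were adjusted over all genes. Of all genes 0.649% passed, 0.221% higher and 0.428% lower. At an unadjusted p under 0.05 the members SLC25A6, SLC25A12, SLC25A24, SLC25A39 and SLC25A46 passed, 5 of 41 (12.2%) beside 13.9% of all genes. DESeq2 called 0 members and edgeR's likelihood-ratio test 2, of which 1 was higher and 1 lower. The shares of all genes that DESeq2 and the likelihood-ratio test called were not counted. The log2 fold changes of the members ran from -0.26 to 0.27 with a median of 0.02, and the median of all genes was 0. In CPM, the 10 nM libraries lay wholly above the Ctrl libraries for SLC25A3, SLC25A39 and SLC25A46, where 10.1% of all genes did so. They lay wholly below them for SLC25A6, SLC25A24, SLC25A25 and SLC25A36, where 9.9% of all genes did. Same-numbered libraries of Ctrl and 10 nM deviated together, and with the replicate number as a block beside surrogate variables SLC25A6, SLC25A24, SLC25A39 and SLC25A46 passed, 4 members (9.76%) beside 10.5% of all genes.

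At 20 nM, 8 of the 41 members passed (19.5%), beside 13.9% of all genes. SLC25A1, SLC25A12, SLC25A13, SLC25A39, SLC25A44 and SLC25A46 rose, 6 members where 7.8% of all genes rose, and SLC25A6 and SLC25A24 fell, where 6.08% of all genes fell. The median log2 fold change of the members was 0.01 and that of all genes 0. With dose as a number (0, 10 and 20 nM, 2 surrogate variables) 11 members passed (26.8%), beside 17.5% of all genes. Of these, 7 rose, beside 9.84% of all genes, and 4 fell, beside 7.69%. SLC25A26 was added among those that rose, and SLC25A36 and SLC25A40 among those that fell. Without 20 nM replicate 3, 9 members passed at 20 nM (all genes, 17.8%) and 9 in the dose trend (all genes, 18.5%). The 8 of the full 20 nM comparison were among the first 9 together with SLC25A40, and SLC25A26 and SLC25A36 were the members no longer called in the dose trend. Same-numbered libraries of Ctrl and 20 nM deviated together too. With a term for replicate number and no surrogate variable (a replicate block), 5 members passed at 20 nM (12.2%), beside 13.6% of all genes, and SLC25A6, SLC25A12 and SLC25A13 did not. With block and surrogate variables together 14 passed (34.1%), beside 28.4% of all genes. In the dose trend the block gave 7 members (17.1%), beside 16.4% of all genes, and block and surrogate variables 16 (39.0%), beside 32.4%. The 2 mimic groups were compared with the same 3 Ctrl libraries, and the dose trend uses all of them again.

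**Figure D3:**
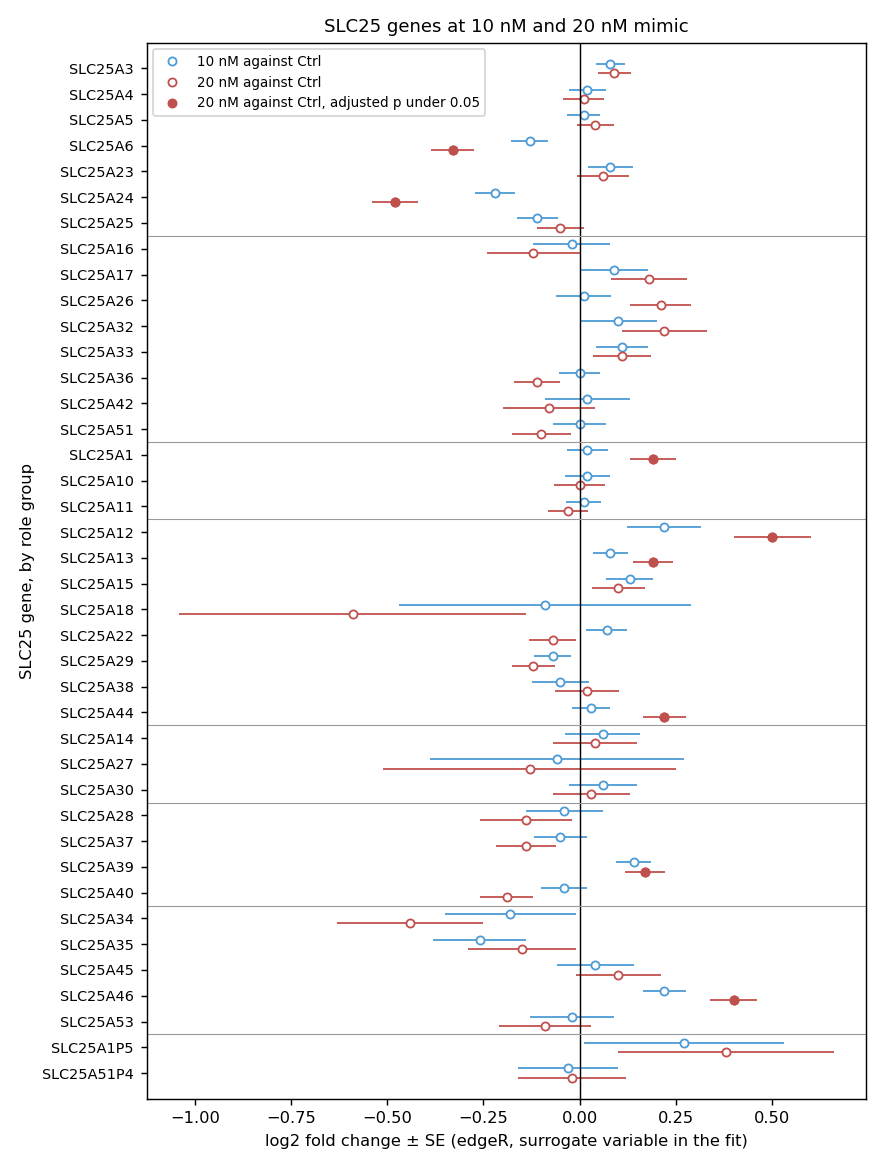
Log2 fold change ± SE against Ctrl of 40 of the 41 SLC25 genes at 10 nM (blue) and 20 nM (red), from the edgeR fit with its surrogate variable, with filled points at an adjusted p under 0.05. The 8 filled points are all at 20 nM, with SLC25A24 (-0.48) and SLC25A6 (-0.33) to the left and SLC25A12 (0.50) and SLC25A46 (0.40) farthest to the right.

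The direct comparison of the 2 doses called 1 member, SLC25A24, lower at 20 nM than at 10 nM, beside 2.79% of all genes in either direction, 1.91% higher and 0.883% lower. No member was higher. At an unadjusted p under 0.05 there were 10 members (24.4%), beside 14.9% of all genes. DESeq2 called 2 members and the likelihood-ratio test 3, and the shares of all genes called by either were not counted. The 3 groups of libraries separated stepwise, with no overlap between neighbouring doses, in 2 members. SLC25A46 did so upward, as did 2.16% of all genes, and SLC25A24 downward, as did 1.65%.

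Among the carriers of adenine nucleotides, ATP-Mg and phosphate, 7 of 9 listed genes were measured, and 0 rose and 2 fell at 20 nM, where 6.08% of all genes fell, and in the dose trend, where 7.69% did. The group's median log2 fold change at 20 nM was 0.01. SLC25A24, a calcium-regulated carrier that exchanges ATP-Mg for phosphate, had the smallest adjusted p of all members at 20 nM and in the dose trend, and fell. Its level was 61.4, 60.2 and 59.8 CPM in Ctrl, 55.0, 47.7 and 47.8 CPM at 10 nM, and 44, 40.1 and 32.1 CPM at 20 nM. Every mimic library lay below every Ctrl library, and every 20 nM library below every 10 nM library. The log2 fold change was -0.22 ± 0.052 (SE) at 10 nM (edgeR adjusted p = 0.0775), -0.48 ± 0.060 at 20 nM (adjusted p = 0.000259), -0.26 ± 0.057 between the doses (adjusted p = 0.0302) and -0.53 ± 0.054 per 20 nM in the dose trend (adjusted p = 3.83e-05). The gene lies at chr1:108134043-108200849 on the minus strand, and the 7-mers printed above begin at bases 984 and 2409 of its 3′ UTR of 2610 bases. Its calls at 20 nM and in the dose trend held in every alternative fit, but the call between the doses held in only 3 of the 9 fits that left out 1 library, those without Ctrl replicate 2, Ctrl replicate 3 or 10 nM replicate 2, with an adjusted p from 0.0376 to 0.102 over the 9, and was lost without a surrogate variable (adjusted p = 0.241) and with the replicate block (0.0899). Its paralogues SLC25A23 and SLC25A25 carry out the same exchange and passed no test. SLC25A23 averaged 62.6 ± 4.82 CPM in Ctrl and 64.5 ± 1.13 CPM at 20 nM (SD, n = 3), and SLC25A25 41.4 ± 0.912 and 40.2 ± 1.16 CPM. Within a library the log2 ratio of SLC25A23 to SLC25A24 was 0.11, 0.10 and -0.06 in Ctrl, 0.30, 0.49 and 0.39 at 10 nM, and 0.53, 0.71 and 1 at 20 nM.

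SLC25A6 encodes an adenine nucleotide translocator and lies in the pseudoautosomal region, at chrX:1386152-1392113. Its level was 1112, 1173 and 1086 CPM in Ctrl, 1021, 1083 and 1062 CPM at 10 nM, and 854, 974 and 1173 CPM at 20 nM. The 10 nM libraries all lay below Ctrl, and so did 20 nM replicates 1 and 2, but 20 nM replicate 3 was level with the highest Ctrl library. The fitted log2 fold change was -0.33 ± 0.056 at 20 nM (edgeR adjusted p = 0.00236) and -0.28 ± 0.051 in the dose trend (adjusted p = 0.00184). Without a surrogate variable the change at 20 nM was -0.17 with an adjusted p of 0.314, with the replicate block it was -0.18 (adjusted p = 0.197, and 0.161 in the dose trend), and without 20 nM replicate 1 the adjusted p was 0.0918 at 20 nM and 0.151 in the dose trend, so its calls depended on the correction and on that library. Leaving out 20 nM replicate 3 gave -0.30 (adjusted p = 0.00468). SLC25A4, SLC25A5 and SLC25A3 passed no test. SLC25A5 averaged 254 ± 8.25 CPM in Ctrl and 268 ± 9.16 CPM at 20 nM, SLC25A4 58.6 ± 3.09 and 71.9 ± 18.6 CPM, and SLC25A3 326 ± 5.5 and 347 ± 4.21 CPM. The adenine nucleotide carriers are close in sequence, and an estimate from reads that fit more than 1 of them, or their pseudogenes, is to that extent uncertain.

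Of the carriers of other nucleotides and cofactors, 9 of 10 were measured, and 0 passed at 20 nM, with a median log2 fold change of 0.10, where 13.9% of all genes passed. In the dose trend 1 rose and 1 fell, beside 9.84% and 7.69% of all genes. SLC25A26, which brings S-adenosylmethionine into the matrix, read 19.6, 19.4 and 19.1 CPM in Ctrl, 19.9, 21 and 18.9 CPM at 10 nM, and 22.1, 22.9 and 27.7 CPM at 20 nM. All 20 nM libraries lay above the other 6. Its dose trend was 0.25 ± 0.079 (edgeR adjusted p = 0.0418), and 0.22 with an adjusted p of 0.0612 without 20 nM replicate 3. Leaving out Ctrl replicate 2 or 3, 10 nM replicate 1 or 20 nM replicate 2 also ended that call, with an adjusted p of at most 0.142, and so did DESeq2 (adjusted p = 0.0971), scaling by library totals (0.0587), the filter at 1 CPM (0.0516) and leaving out the surrogate variables (0.0613), so that it held in 10 of 19 alternative fits. SLC25A36, a pyrimidine nucleotide carrier, read 103.0, 96.0 and 96.4 CPM in Ctrl, 95.8, 94.5 and 92.3 CPM at 10 nM, and 97.2, 79.4 and 58.8 CPM at 20 nM. The 20 nM libraries spread widely and the first of them lay inside the Ctrl range. The dose trend was -0.21 ± 0.059 (adjusted p = 0.0281), and -0.14 with an adjusted p of 0.16 without 20 nM replicate 3, and leaving out Ctrl replicate 1 or 3 or 20 nM replicate 2 ended the call too, as did the fits without surrogate variables (adjusted p = 0.146) and with the replicate block (0.0637). The 8-mer and the 7-mer of SLC25A36 begin at bases 3808 and 1443 of a 3′ UTR of 4542 bases. SLC25A33, the other pyrimidine nucleotide carrier, averaged 31.5 ± 1.92 CPM in Ctrl and 33.2 ± 1.93 CPM at 20 nM. SLC25A16 and SLC25A42, both linked to coenzyme A, had log2 fold changes of -0.12 ± 0.12 and -0.08 ± 0.12 at 20 nM (adjusted p = 0.554 and 0.751), although each holds a match to bases 2 to 8. The folate or FAD carrier SLC25A32, the NAD+ carrier SLC25A51 and the peroxisomal SLC25A17 passed no test either, with log2 fold changes at 20 nM of 0.22, -0.10 and 0.18.

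Of the di- and tricarboxylate carriers 3 of 4 were measured and 1 rose, at 20 nM, where 7.8% of all genes rose, and in the dose trend, where 9.84% did. SLC25A1, which exports citrate for fatty acid and sterol synthesis, read 70.1, 72.9 and 69.2 CPM in Ctrl, 69.0, 73.2 and 76.1 CPM at 10 nM, and 76.7, 88.0 and 93.3 CPM at 20 nM. The 20 nM libraries lay above all others, and the 10 nM libraries overlapped Ctrl. The change was 0.19 ± 0.059 at 20 nM (edgeR adjusted p = 0.0473) and 0.22 ± 0.060 in the dose trend (adjusted p = 0.0207). Over the 9 fits that left out 1 library the adjusted p at 20 nM ran from 0.0166 to 0.35, and the call held only without 10 nM replicate 1, 20 nM replicate 1 or 20 nM replicate 3. It was also lost with RLE scaling (adjusted p = 0.0528), library totals (0.067), DESeq2 (0.0687), no surrogate variable (0.0553) and 1 more of them (0.0791), and held in 7 of 18 alternative fits. The dose trend was lost without Ctrl replicate 3 or without 20 nM replicate 2 (adjusted p up to 0.152). The dicarboxylate carrier SLC25A10 and the oxoglutarate carrier SLC25A11 had log2 fold changes of 0.00 ± 0.066 and -0.03 ± 0.051 at 20 nM, with adjusted p-values of 0.984 and 0.783. For SLC25A10 every 20 nM library nonetheless lay above every Ctrl library.

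Among the amino acid carriers 8 of 9 were measured, and 3 rose and 0 fell at 20 nM, where 7.8% of all genes rose, and in the dose trend, where 9.84% did. The group's median at 20 nM was 0.06. SLC25A12 and SLC25A13 bring glutamate into the matrix and aspartate out of it. SLC25A12 read 9.44, 10.5 and 10.4 CPM in Ctrl, 11.8, 11.8 and 10.3 CPM at 10 nM, and 14.3, 13.5 and 8.95 CPM at 20 nM. The first pair of 20 nM libraries lay above all others, and 20 nM replicate 3 was the lowest of the 9. The fitted change was 0.50 ± 0.10 at 20 nM (edgeR adjusted p = 0.00798), 0.27 without a surrogate variable (adjusted p = 0.309), 0.25 with the replicate block (adjusted p = 0.253) and 0.46 without 20 nM replicate 3 (adjusted p = 0.00749), and without 20 nM replicate 1 the adjusted p was 0.0823. Its dose trend was 0.39 ± 0.098 (adjusted p = 0.0136), lost without 20 nM replicate 1 or 2 (adjusted p up to 0.162), without surrogate variables (0.271) and with the block (0.214). SLC25A13 read 109.0, 113.0 and 119.0 CPM in Ctrl, 118.0, 121.0 and 119.0 CPM at 10 nM, and 129.0, 131.0 and 120.0 CPM at 20 nM. Its 20 nM libraries lay just above Ctrl, and the change of 0.19 ± 0.052 at 20 nM (adjusted p = 0.0277) was lost without Ctrl replicate 1 or 2, without 20 nM replicate 1 or 2 (adjusted p up to 0.171), without a surrogate variable (adjusted p = 0.154) and with the replicate block (0.12). The dose trend of 0.17 ± 0.049 (adjusted p = 0.0267) was lost without the same libraries (adjusted p up to 0.138), with library totals (0.0539), without surrogate variables (0.12) and with the block (0.0918). SLC25A44, which carries branched-chain amino acids, read 61.2, 63.5 and 63.9 CPM in Ctrl, 66.7, 61.6 and 65.9 CPM at 10 nM, and 75.0, 71.8 and 81.6 CPM at 20 nM. All 20 nM libraries exceeded the other 6, with a change of 0.22 ± 0.055 (adjusted p = 0.0188) and a dose trend of 0.26 ± 0.048 (adjusted p = 0.0021). The dose trend of SLC25A44 held in all 19 alternative fits, and the call at 20 nM was lost without Ctrl replicate 1 or without 20 nM replicate 1 (adjusted p up to 0.0875). The ornithine carrier SLC25A15, the glutamate carriers SLC25A22 and SLC25A18, the basic amino acid carrier SLC25A29 and the glycine carrier SLC25A38 passed no test, although the 20 nM libraries of SLC25A29, at 149.0, 147.0 and 151.0 CPM, all lay below Ctrl at 171.0, 154.0 and 160.0 CPM.

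All 4 carriers of iron and glutathione were measured, of which 1 rose and 0 fell at 20 nM, and 1 rose and 1 fell in the dose trend, where 9.84% and 7.69% of all genes did. SLC25A39, which brings glutathione into the matrix, rose at 20 nM and in the dose trend, and its paralogue SLC25A40 fell in the dose trend. SLC25A39 read 154.0, 147.0 and 158.0 CPM in Ctrl, 163.0, 171.0 and 184.0 CPM at 10 nM, and 175.0, 175.0 and 208.0 CPM at 20 nM. Every mimic library lay above every Ctrl library, while the doses overlapped. It rose by 0.17 ± 0.051 at 20 nM (edgeR adjusted p = 0.0465, from 0.00955 to 0.118 when 1 library was left out, and held only without 10 nM replicate 1, 10 nM replicate 3 or 20 nM replicate 3, and lost with library totals at 0.0671 and without a surrogate variable at 0.0644) and by 0.20 ± 0.050 in the dose trend (adjusted p = 0.0135, held in all 19 alternative fits). SLC25A40 read 46.8, 42.4 and 44.6 CPM in Ctrl, 42.4, 41.3 and 42.6 CPM at 10 nM, and 37.8, 39.4 and 28.3 CPM at 20 nM. All 20 nM libraries lay below the other 6. Its change was -0.19 ± 0.068 at 20 nM (adjusted p = 0.0819) and -0.26 ± 0.067 in the dose trend (adjusted p = 0.0157), and without a surrogate variable the dose trend had an adjusted p of 0.0676. No seed match was found in its 3′ UTR. The log2 ratio of SLC25A39 to SLC25A40 was 1.72, 1.80 and 1.82 in Ctrl, 1.94, 2.05 and 2.11 at 10 nM, and 2.21, 2.15 and 2.88 at 20 nM. Both iron carriers, SLC25A28 and SLC25A37, had log2 fold changes of -0.14 at 20 nM (adjusted p = 0.476 and 0.253).

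SLC25A46, an outer membrane member known for its part in mitochondrial fusion and cristae shape, rose at 20 nM and in the dose trend. It read 48.0, 49.8 and 53.8 CPM in Ctrl, 57.4, 58.9 and 60.3 CPM at 10 nM, and 69.5, 65.0 and 68.5 CPM at 20 nM, with no overlap between any pair of groups. The change was 0.22 ± 0.055 at 10 nM (edgeR adjusted p = 0.105), 0.40 ± 0.061 at 20 nM (adjusted p = 0.000928) and 0.41 ± 0.057 in the dose trend (adjusted p = 0.000333). The calls at 20 nM and in the dose trend held in all 18 and all 19 alternative fits. It was the only one of 5 measured members in the group of outer membrane, choline and unclassed carriers (8 listed) to pass, and SLC25A34, SLC25A35, SLC25A45 and SLC25A53 did not. SLC25A34 was low, at 4.33 ± 0.516 CPM in Ctrl and 3.25 ± 0.285 CPM at 20 nM, with an adjusted p of 0.158. The 3 uncoupling protein relatives SLC25A14, SLC25A27 and SLC25A30 passed no test, with log2 fold changes at 20 nM of 0.04, -0.13 and 0.03. Of the pseudogenes, SLC25A1P5 averaged 1.65 CPM in Ctrl and SLC25A51P4 6.69 CPM, and neither passed.

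**Figure D4:**
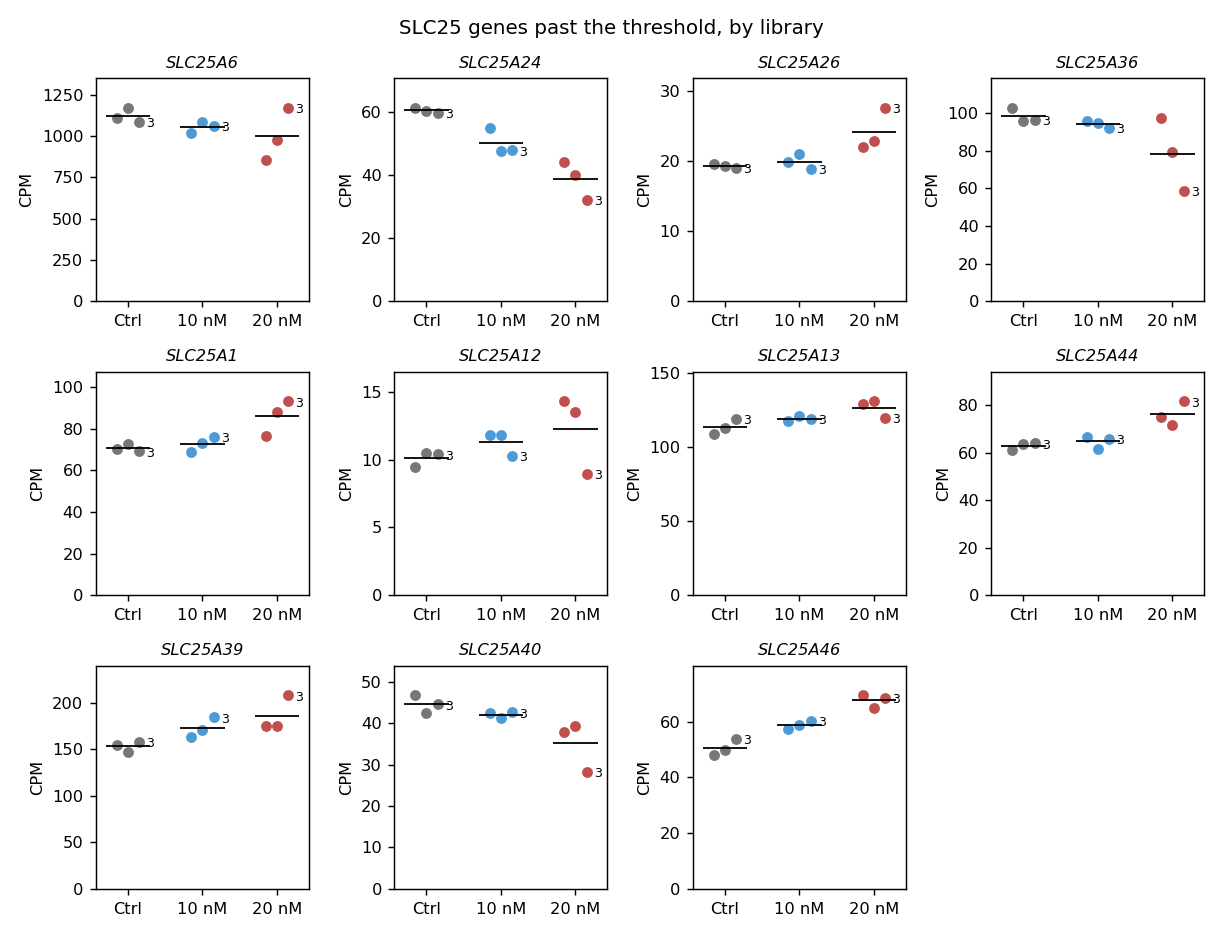
CPM by library (points, replicates 1 to 3 from left to right, the 3rd marked) and group mean (line) of the 11 SLC25 genes past the threshold in at least 1 comparison, with each axis from 0. SLC25A24 and SLC25A46 separate stepwise, and for SLC25A6 and SLC25A12 the 20 nM replicate 3 returns to the Ctrl range or below it.

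Across the family, 20 nM libraries lay wholly above Ctrl for 9 members, beside 15.2% of all genes, and wholly below for 5 members, beside 13.7%. Of the 9, SLC25A3, SLC25A10, SLC25A14 and SLC25A26 did not pass the test at 20 nM, and of the 5, SLC25A29, SLC25A34, SLC25A40 and SLC25A51 did not. Ratios of 10 pairs of paralogues were formed within libraries, where they do not depend on the scaling, and 9 were tested between the 6 mimic and 3 Ctrl libraries with a two-sided exact permutation test over 84 splits, whose smallest p is 0.0119. The ratio of SLC25A23 to SLC25A24 had the smallest p, 0.0238 (0.179 adjusted over the 9 ratios), with a difference of 0.52, and 6 of 6 mimic libraries exceeded all Ctrl libraries. The ratio of SLC25A39 to SLC25A40 differed by 0.44 with p = 0.0595 in the same exact test (adjusted p = 0.179), also with 6 of 6 mimic libraries above Ctrl. None of the 9 ratios passed after adjustment. The ratio of SLC25A18 to SLC25A22 was not tested because SLC25A18 averaged under 1 CPM.

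Sorted by their seed match, the 5 coding members that pair with bases 2 to 8 had log2 fold changes in the dose trend from -0.53 to -0.02, with a median of -0.21, and 3 of them (SLC25A6, SLC25A24 and SLC25A36) fell. Only SLC25A24 of these 3 kept its call without surrogate variables or with the replicate block. Of the 1827 genes of the table with such a match 14.8% fell, with a median of -0.04. The 5 members with only the 7-mer before an A had a median of 0.07 and 0 passed, where 11.3% of 1287 genes fell and 9.63% rose. Of 7 members with only a 6-mer, 0 fell and 3 rose (SLC25A12, SLC25A26 and SLC25A46), where 8.84% of 2171 genes fell and 10.7% rose. Of the 22 members with no match, 1 fell (SLC25A40) and 4 rose (SLC25A1, SLC25A13, SLC25A39 and SLC25A44), where 5.5% of 8493 genes fell and 11% rose. Counting 8-mers alone left 1 member with a match, and counting 6-mers as well gave 17. These counts are small and no test was made of them. SLC25A20, left out of the counts above, holds 3 matches and averaged 18.2 ± 0.921 CPM in Ctrl and 10.0 ± 0.839 CPM at 20 nM (SD, n = 3).

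**Figure D5:**
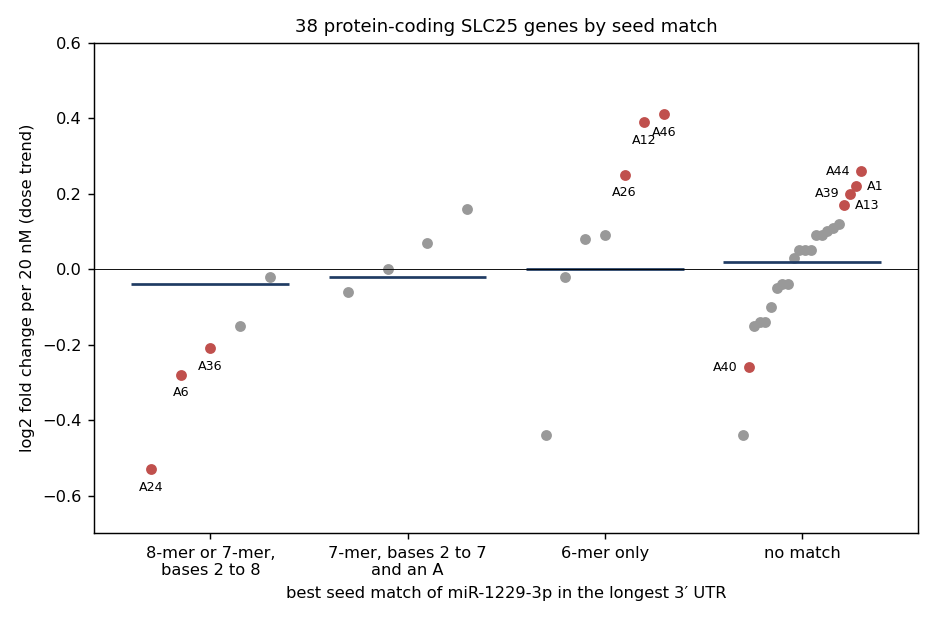
Log2 fold change per 20 nM in the dose trend of 38 of the 39 protein-coding SLC25 genes, by the best match to the miR-1229-3p seed in the longest 3′ UTR, with genes at an adjusted p under 0.05 in red and named without the prefix SLC25, the other genes in grey, and the median of all genes with the same match as a blue line. The 5 genes that pair with bases 2 to 8 all lie below 0, and the genes that rose lie in the 6-mer and no-match columns.

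Of 4 measured family members under other names (UCP2, UCP3, MTCH1 and MTCH2), 0 passed in any comparison with edgeR. Of all genes 0.649% passed at 10 nM, 13.9% at 20 nM, 2.79% between the doses and 17.5% in the dose trend. Beside these shares, 0 of 4 genes says little. Of 24 genes for other transport across the mitochondrial membranes, 0 passed at 10 nM, 3 rose and 0 fell at 20 nM, where 7.8% of all genes rose and 6.08% fell, and 4 rose and 1 fell in the dose trend, where 9.84% rose and 7.69% fell. The median log2 fold change of the 24 at 20 nM was 0.03. The sideroflexin SFXN4 rose by 0.49 (edgeR adjusted p = 0.00674), the porphyrin-linked transporter ABCB6 by 0.30 (adjusted p = 0.0053) and the outer membrane protein TSPO by 0.25 (adjusted p = 0.0188) at 20 nM. SFXN4 read 17.7, 17 and 16 CPM in Ctrl and 22.1, 25.1 and 16.6 CPM at 20 nM, so 20 nM replicate 3 lay inside the Ctrl range. All 20 nM libraries of ABCB6 and TSPO lay above Ctrl. The alternative fits were not examined for these genes. The pyruvate carrier genes MPC1 and MPC2 and the porins VDAC1, VDAC2 and VDAC3 passed no test. Of the 13 genes listed for the import of carrier proteins (the TIM22 route), 0 passed at either dose. Of all genes 0.649% passed at 10 nM and 13.9% at 20 nM. The receptor TOMM20, at -0.15 (edgeR adjusted p = 0.0386), was the only one of the 13 to pass in the dose trend, where 17.5% of all genes did. The median of the 13 at 20 nM was 0.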

How the data were processed

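PolyA RNA was sequenced from 9 libraries, 3 per group. The authors mapped reads to GRCh38.p13 (Ensembl annotation 107) with salmon (version not given in the sources used here), summed them to gene symbols and kept expressed genes with edgeR's filterByExpr, and the deposited values are estimated counts per gene, of which 88.8% are not whole. A deposited table of values corrected for surrogate variables and the authors' tables of fold changes and p-values were not used. Here counts were rounded and tested with edgeR 4.0.16 (quasi-likelihood, TMM) in R 4.3.3, with surrogate variables from sva 3.50.0 (1 by group, 2 by dose, on log2 CPM with a prior count of 2) and Benjamini-Hochberg adjustment over 14943 genes at 0.05. CPM are TMM-scaled and uncorrected, and errors of fold changes are SE. The sources do not say whether replicates were separate cultures, and RNA of all replicates was extracted together, so p-values measure the spread between these samples, which may be technical. No pair of replicates of the same group agreed within sampling noise. Deviations of same-numbered libraries correlated at 0.142 to 0.185 between Ctrl and 10 nM and at 0.107 to 0.116 between Ctrl and 20 nM. Between the doses they correlated at 0.0288 to 0.176. The main fits and the ratio test held no term for replicate number and so did not use the pairs. Only the alternative fits with a replicate block did. The pairing comes from these correlations and the sample titles. Alternatives were RLE and total scaling, a filter at 1 CPM in 3 libraries (13910 genes), DESeq2 1.42.0, the likelihood-ratio test, other numbers of surrogate variables, a replicate block and leaving out each library. The code was tested on simulated data. Positions, lengths and 3′ UTRs (at least 50 bases) came from GENCODE 44 on GRCh38 (14105 genes matched by identifier, 768 by symbol, 70 not matched), and SLC25A24 and SLC25A26 were matched by symbol. The microRNA sequence was taken from RefSeq. Named genes were all members past the threshold in any comparison, those with a seed match, fixed examples of each role, and members whose groups separated. The members, role groups and lists were chosen with earlier results of these data known. The values of 1 member are not reported here, although it is included in the counts.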

Additional observations from a re-analysis of the deposited data

How the results depend on the processing

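Alternatives were run on the member counts, on the changes of called members and on the 9 tested paralogue ratios, and none of these changed sign. Of the counts of members called, 0 at 10 nM became 2 with the likelihood-ratio test and 4 with a replicate block and surrogate variables together. The 8 at 20 nM became 3 without a surrogate variable, 5 with the replicate block alone, 14 with block and surrogate variables, and 4 to 9 when 1 library was left out (4 without Ctrl replicate 1 or without 20 nM replicate 1). The 1 call between the doses became 2 with DESeq2, 3 with the likelihood-ratio test, 0 without a surrogate variable, 2 with 1 more, 0 with the replicate block, 7 with block and surrogate variables, and 0 to 1 when 1 library was left out. The 11 in the dose trend became 5 without surrogate variables, 7 with the replicate block, 16 with block and surrogate variables, and 6 to 11 when 1 library was left out (6 without 20 nM replicate 2). Beyond the shares of all genes given earlier, none was counted for these settings. Whether the rest of the genes changed alike is therefore not shown. The cause was not tested. The replicate block ended no call of a member beyond those of SLC25A6, SLC25A12, SLC25A13 and SLC25A36 against Ctrl or with dose and of SLC25A24 between the doses. Of the single values, 76 alternative values lost their call and 3 gained one, where a ratio counted as called at an unadjusted permutation p under 0.05. The gains were all of ratios, and the ratio of SLC25A23 to SLC25A24 was among the losses. None of the ratios passed after adjustment in any of these settings. At 3 libraries a group, the lowest coding members (SLC25A18 and SLC25A27) had standard errors of 0.38 or more at 20 nM, so changes of their size were not detectable.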
